A study of Mus musculus with 8 samples.

Results

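The genes that encode major histocompatibility complex (MHC) class II molecules, together with the invariant chain gene Cd74 and the transactivator gene Ciita, were followed in 3 lymphoid progenitor populations sorted from mouse fetal liver. The 10 genes were taken from the deposited gene table by symbol (H2-Aa, H2-Ab1, H2-Eb1, H2-DMa, H2-DMb1, H2-DMb2, H2-Oa, H2-Ob, Cd74 and Ciita), out of 34745 genes. All 10 passed the filter on low counts, which left 13436 genes for testing. Bulk RNA was sequenced from untreated wild-type B6 mice, with 2 libraries of ILC1/3P, 3 of ILCP and 3 of CLP. ILC1/3P and ILCP are the submitters' names for progenitors on the innate lymphoid path, and CLP are common lymphoid progenitors. All gates took live CD45+ CD127+ CD25- cells without lineage markers. ILC1/3P were in addition Flt3- α4β7+ PD-1- CD94+, and ILCP were Flt3- α4β7+ but PD-1+ CD94-. CLP were Flt3+. Neither the gestational age nor the number of livers per library is given in the sources used here, and a label that reads 6 to 8 weeks old is not explained for fetal tissue. Nothing states that libraries of a group came from separate animals, so p-values measure the spread between these libraries, which may be technical.

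Class II molecules are pairs of an alpha and a beta chain that carry peptides from the endosome to the cell surface, where CD4 T cells read them. In the endosome the invariant chain fills the groove until it is cut down to a remnant, H2-DM exchanges that remnant for other peptides, and H2-O binds H2-DM and holds it back. Ciita is a coactivator of class II transcription. It does not bind DNA itself and is recruited by RFX at the X box and NF-Y at the Y box of class II promoters. Among lymphoid cells the family is best known in B cells, and group 3 innate lymphoid cells and lymphoid tissue inducer cells of the mouse can carry it too.

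The promoters of several of these genes hold letters like those of the X and Y box pair through which Ciita is known to be recruited. They are printed so that genes with different courses across the populations can be compared in sequence. RefSeq windows (build GRCm38.p6, 250 bases before to 50 after each start) matched 7 of the 10 genes, with 8 windows in all, and H2-Ab1, Cd74 and Ciita were not matched. A search for AAC followed within 22 to 36 bases by GATTGG, chosen after the sequences had been seen and run on both strands with no overlap allowed, found the pair in 6 of the 8 windows, 1 for each of 6 genes. Of all 32851 RefSeq windows of the same length, 2.77% held this pair and 16.1% held GATTGG on either strand. The fuller X box pattern AACNNNTGA was in 4 of the 8 windows (H2-Eb1, H2-DMb1, H2-DMb2 and H2-Ob) and in 11.9% of all windows. In the 70 bases printed for each gene, 5′ to 3′ along the gene's own strand, capitals mark the AAC and the GATTGG of the pair. In H2-Aa and H2-Oa this AAC did not open the fuller pattern. The stretches lie at chr17:34287859-34287928 (minus strand) for H2-Aa, and on the plus strand at chr17:34305751-34305820 for H2-Eb1, chr17:34153073-34153142 for H2-DMb1, chr17:34145102-34145171 for H2-DMb2, chr17:34092279-34092348 for H2-Oa and chr17:34238791-34238860 for H2-Ob.
H2-Aa: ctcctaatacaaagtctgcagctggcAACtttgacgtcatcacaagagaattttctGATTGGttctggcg
H2-Eb1: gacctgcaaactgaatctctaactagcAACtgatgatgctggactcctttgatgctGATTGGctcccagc
H2-DMb1: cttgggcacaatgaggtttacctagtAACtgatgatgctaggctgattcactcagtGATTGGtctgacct
H2-DMb2: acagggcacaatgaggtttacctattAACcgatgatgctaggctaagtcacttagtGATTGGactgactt
H2-Oa: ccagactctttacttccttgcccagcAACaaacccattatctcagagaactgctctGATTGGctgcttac
H2-Ob: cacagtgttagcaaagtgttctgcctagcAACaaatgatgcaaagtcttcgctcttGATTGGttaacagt

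The spacing between AAC and GATTGG was 27 bases in H2-Aa, H2-DMb1, H2-DMb2 and H2-Oa, 26 in H2-Eb1 and 24 in H2-Ob. The Y box began 44 to 91 bases before the RefSeq start, nearest in H2-Oa and farthest in H2-DMb2. The stretches of H2-DMb1 and H2-DMb2 are alike over most of their length. H2-DMa had 2 windows, and neither held the pair. They ended at 34122881 and 34125567, whereas the locus given in the gene table starts at 34135182. No window of H2-DMa covered that start, so the bases there were not searched for this gene. The printed stretches of H2-DMb2 and H2-DMb1 lie inside their loci in the gene table, which start at 34143307 and 34153072. That of H2-Oa crosses its locus start at 34092340. For these genes the stretch thus precedes the RefSeq start but not the start of the table's locus. These matches describe the letters in the windows and say nothing on which factor was bound in these cells. The pair stood both in promoters of genes called lower in ILC1/3P against CLP (H2-DMb1, H2-DMb2 and H2-Ob) and in promoters of genes that were not called there (H2-Aa, H2-Eb1 and H2-Oa).

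The libraries held 4991939 to 8082476 counts over all genes. The value of 3 counts, used as the floor of detection, was 0.34 to 0.709 CPM, the count scaled to a common library size after trimmed-mean (TMM) adjustment. The transcripts of the markers that set the gates apart had these levels. Klrd1 (CD94) had 1184 and 1629 CPM in ILC1/3P, 19.1 to 71.5 CPM in ILCP and 40.8 to 65.5 CPM in CLP. Pdcd1 (PD-1) had 10.2 and 17.5 CPM in ILC1/3P, 44.6 to 107 CPM in ILCP and no counts in CLP, and Flt3 had no counts in ILC1/3P, at most 1.28 CPM in ILCP and 400.7 to 570.4 CPM in CLP. For the α4β7 gate, Itgb7 had 39.1 and 65.9 CPM in ILC1/3P, 28.3 to 113 CPM in ILCP and 0.736 to 8.27 CPM in CLP, whereas Itga4 had 169 and 100.2 CPM in ILC1/3P, 417 to 490 CPM in ILCP and 302 to 412 CPM in CLP, and was called lower in ILC1/3P than in either other population. Il2ra (CD25), which all gates excluded as a protein, had 0.822 and 3.78 CPM in ILC1/3P, 6.26 to 9.26 CPM in ILCP and no counts in CLP, and was called higher in both innate progenitors.

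The family did not move as a block. Of the genes for the peptide-editing machinery, H2-DMa and H2-Ob were lower in both innate progenitors than in CLP. Genes for the peptide-presenting chains and Cd74 varied widely between libraries within ILCP and within CLP, and none of them was called. With edgeR's quasi-likelihood test and an adjusted p under 0.05, 4 of the 10 genes (H2-DMa, H2-DMb1, H2-DMb2 and H2-Ob) were called lower and 0 higher in ILC1/3P against CLP, where 11.8% of all tested genes were higher and 11.7% lower. In ILCP against CLP, 0 were higher and 2 were lower (H2-DMa and H2-Ob), where 3.91% of tested genes were higher and 2.87% lower. In ILC1/3P against ILCP, 0 were higher and 1 was lower (H2-Ob), where 8.06% were higher and 8.25% lower. The median log2 fold change of the 10 genes was -0.37, 1.06 and -0.99 in these comparisons, beside -0.25, 0.01 and -0.23 over all tested genes. ILC1/3P against CLP and ILCP against CLP share the CLP libraries, so their calls are not independent. In such bulk libraries, fewer cells with a transcript and less transcript per cell cannot be told apart.

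**Figure D1:**
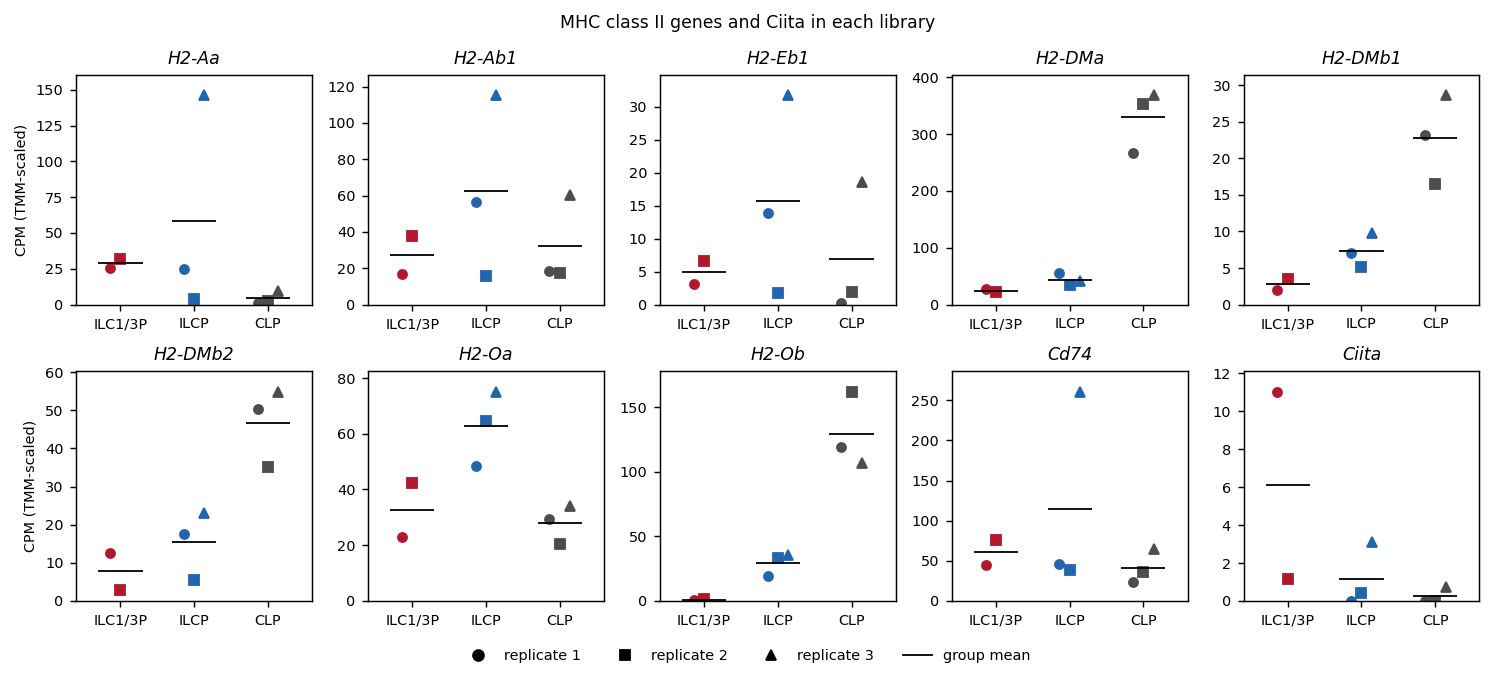
Each panel shows a gene's TMM-scaled CPM (vertical axis from 0) in every library of ILC1/3P, ILCP and CLP, with the mark shape giving the replicate number and the line the group mean. H2-DMa, H2-DMb1 and H2-Ob separate the populations without overlap. ILCP replicate 3 is the highest library for H2-Aa, H2-Ab1, H2-Eb1 and Cd74, and stands far above the others for H2-Aa and Cd74.

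H2-DMa (ENSMUSG00000037649, chromosome 17, 34135182 to 34139101 in mm10) encodes the alpha chain of H2-DM, and it was the most abundant of the 10 genes in CLP by FPKM, the authors' length-adjusted value. It had 26.6 and 22.2 CPM in ILC1/3P, 54.8, 35.2 and 42.2 CPM in ILCP, and 267, 353 and 368 CPM in CLP. All 3 populations were apart, and the libraries of each lay close together, the highest at most 1.55 times the lowest. The log2 fold change was -3.75 ± 0.33 (SE) in ILC1/3P against CLP, a 13.4-fold lower level (edgeR adjusted p = 2.54e-05). It was -2.90 ± 0.27 in ILCP against CLP, a 7.47-fold lower level (edgeR adjusted p = 5.24e-05). The further difference between ILC1/3P and ILCP, -0.85 ± 0.29, did not pass the test (edgeR adjusted p = 0.0731), although it passed when libraries were scaled by their total counts alone (adjusted p = 0.0079). In GENCODE M21 an exon of Brd2 shares 360 bases with H2-DMa, none of them inside the locus that the gene table gives. Brd2 had 12.8 to 35.2 CPM over all libraries.

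The beta chain of H2-DM is encoded by a pair of neighbouring genes in the mouse. H2-DMb1 (ENSMUSG00000079547, chromosome 17, 34153072 to 34160230) had 1.97 and 3.55 CPM in ILC1/3P, 7.11, 5.11 and 9.85 CPM in ILCP, and 23.2, 16.6 and 28.6 CPM in CLP. The populations did not overlap. H2-DMb2 (ENSMUSG00000037548, chromosome 17, 34143307 to 34151553) had 12.7 and 2.84 CPM in ILC1/3P, 17.6, 5.39 and 23.1 CPM in ILCP, and 50.3, 35.1 and 54.8 CPM in CLP. CLP stood above both innate progenitors, which overlapped each other. In ILC1/3P against CLP the log2 fold change was -3.05 ± 0.78 for H2-DMb1 (edgeR adjusted p = 0.0151) and -2.58 ± 0.77 for H2-DMb2 (edgeR adjusted p = 0.0321). In ILCP against CLP it was -1.63 ± 0.62 for H2-DMb1 (edgeR adjusted p = 0.16) and -1.61 ± 0.63 for H2-DMb2 (edgeR adjusted p = 0.176). Neither gene was called between ILC1/3P and ILCP, with -1.42 for H2-DMb1 and -0.97 for H2-DMb2. The calls in ILC1/3P were close to the threshold: H2-DMb1 lost its call without CLP replicate 3 (adjusted p = 0.0572) or without ILC1/3P replicate 1 (0.0643), and H2-DMb2 without any of the 3 CLP libraries (0.0523 to 0.0858) or without ILC1/3P replicate 2 (0.152). The transcripts of H2-DMb1 and H2-DMb2 are 95.2% identical over 1094 aligned positions, with a longest identical run of 221 bases, so the split of reads between them is uncertain.

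The balance of alpha and beta transcripts of H2-DM also lay at different levels. The FPKM of H2-DMb1 and H2-DMb2 together, divided by that of H2-DMa, was 0.514 and 0.324 in ILC1/3P, 0.454, 0.327 and 0.788 in ILCP, and 0.28, 0.149 and 0.234 in CLP. Both innate progenitors lay above CLP with no overlap. The difference in mean log2 ratio was 0.93 for ILC1/3P against CLP (exact permutation test, two-sided, p = 0.2, the smallest that 2 against 3 libraries can give) and 1.19 for ILCP against CLP (exact permutation p = 0.1, the smallest that 3 against 3 can give). In all 9 such ratio comparisons were made, and the adjusted value of each of these was 0.257. This design cannot reach 0.05 for a single value.

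H2-O showed the widest divergence within a heterodimer. H2-Ob (ENSMUSG00000041538, chromosome 17, 34238903 to 34245907), its beta chain, had 0.493 and 1.42 CPM in ILC1/3P, 19.5, 33.4 and 35.9 CPM in ILCP, and 119, 162 and 107 CPM in CLP. The ILC1/3P values rest on 3 and 6 counts, near the floor of detection, while CLP libraries had 722 to 1052 counts. The 3 populations were apart from each other in every library. The log2 fold change was -7.13 ± 0.61 in ILC1/3P against CLP (edgeR adjusted p = 1.9e-05), -2.13 ± 0.37 in ILCP against CLP (edgeR adjusted p = 0.00441) and -5.01 ± 0.57 in ILC1/3P against ILCP (edgeR adjusted p = 0.000407). H2-Ob was the only gene of the 10 called in all 3 comparisons. Its call in ILCP against CLP was lost when replicate 3 of both populations was left out (adjusted p = 0.0534), an alternative added after the data had been seen.

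H2-Oa (ENSMUSG00000024334, chromosome 17, 34092340 to 34095234), the alpha chain of H2-O, followed another course. It had 23.0 and 42.3 CPM in ILC1/3P, 48.5, 64.4 and 75.0 CPM in ILCP, and 29.6, 20.6 and 34.2 CPM in CLP. ILCP lay above both other populations in every library, and ILC1/3P overlapped CLP. None of these differences passed the test: the log2 fold change was 0.21 ± 0.42 in ILC1/3P against CLP (edgeR adjusted p = 0.761), 1.15 ± 0.38 in ILCP against CLP (edgeR adjusted p = 0.1) and -0.94 ± 0.43 in ILC1/3P against ILCP (edgeR adjusted p = 0.168). The sign in ILC1/3P against CLP turned to -0.49 when libraries were scaled by total counts alone, and to -0.29 without ILC1/3P replicate 2. The antisense gene BC051537 shares 321 exonic bases with H2-Oa and had 0.552 to 6.63 CPM, and since the use of strand in counting is not given, its reads cannot be told from those of H2-Oa there.

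The ratio of H2-Oa to H2-Ob in FPKM was 117 and 74.5 in ILC1/3P, 6.21, 4.81 and 5.22 in ILCP, and 0.619, 0.318 and 0.799 in CLP. The beta chain transcript was thus the more abundant in each CLP library and the less abundant in each of the other 5. The mean log2 ratio was 6.54 in ILC1/3P, 2.43 in ILCP and -0.89 in CLP. The differences were 7.43 for ILC1/3P against CLP, 4.11 for ILC1/3P against ILCP and 3.32 for ILCP against CLP. Groups did not overlap, and the exact permutation p-values were the smallest the design allows (0.2, 0.2 and 0.1).

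**Figure D2:**
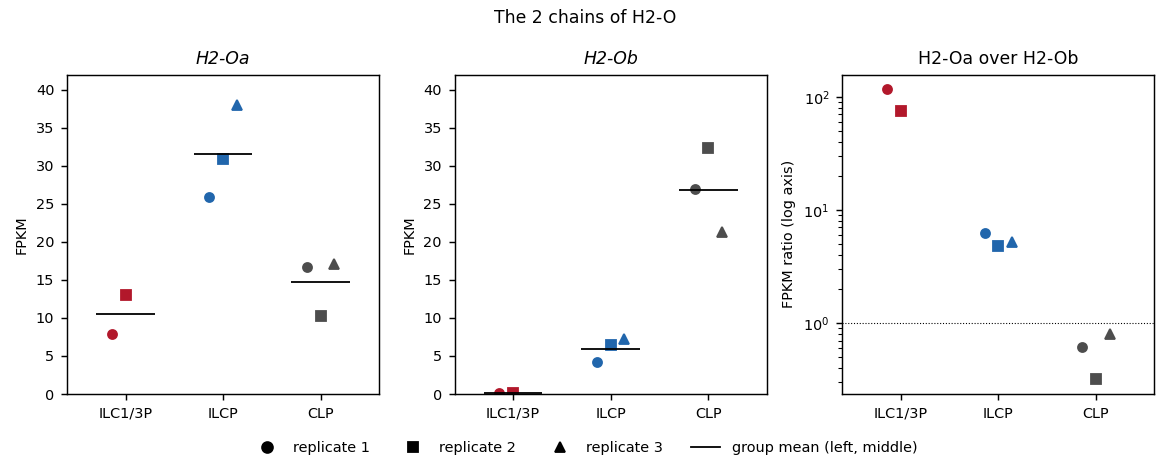
FPKM of H2-Oa (left) and H2-Ob (middle) and the ratio of H2-Oa to H2-Ob (right, log axis) in each library of ILC1/3P, ILCP and CLP, with mark shapes for replicate numbers, lines for group means and a dotted line at a ratio of 1. The ratio is above 74 in both ILC1/3P libraries, between 4.81 and 6.21 in ILCP and below 1 in CLP.

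The sums of 3 lists of cell type markers were highest in CLP. Whether these transcripts came from the CLP themselves or from other cells was not tested. The sum of 8 B-lineage markers was 131 and 173 CPM in ILC1/3P, 155, 175 and 191 CPM in ILCP, and 2545, 3321 and 3047 CPM in CLP, with 6 of the 8 called lower in each innate progenitor by edgeR. The sum of 6 plasmacytoid dendritic cell markers was 98.7 and 159 CPM in ILC1/3P, 123, 154 and 209 CPM in ILCP, and 310 to 416 CPM in CLP. Siglech, a defining marker of that cell type, was at 0 in all 5 libraries of ILC1/3P and ILCP and at 62.7 to 73.8 CPM in CLP. Against CLP, 4 of the 5 tested genes of that list were called lower and 1 higher in ILC1/3P, and 3 lower and 0 higher in ILCP. The higher gene was Bst2, with 54.1 and 130 CPM in ILC1/3P, 3.98 to 6.76 CPM in ILCP and 21.2 to 44.8 CPM in CLP (edgeR adjusted p = 0.0346 for ILC1/3P against CLP). The sum of 10 macrophage and monocyte markers was 69.1 and 91.0 CPM in ILC1/3P, 11.7 to 31.3 CPM in ILCP, and 170 to 228 CPM in CLP. Lyz2 alone had 111 to 165 CPM in CLP, and Adgre1 was at 0 in all CLP libraries. Of the 6 tested genes of that list, 1 (Lyz2) was called lower and 0 higher in each innate progenitor against CLP. C1qb and C1qc had higher means in ILC1/3P (8.56 and 9.22 CPM) than in CLP (1.27 and 1.68 CPM). Neither was called, and C1qc had no counts in 1 ILC1/3P library. The sum of 7 conventional dendritic cell markers ran the other way, with 60.7 and 32.1 CPM in ILC1/3P, 27.3 to 28.5 CPM in ILCP and 17.0 to 19.5 CPM in CLP. Of its 5 tested genes, 1 was called higher and 0 lower in ILC1/3P against CLP. In ILCP against CLP, 1 was higher and 2 were lower. The higher gene was Batf3 in both (no counts in CLP). The lower genes were Itgax (4.87 to 9.49 CPM in CLP, edgeR adjusted p = 0.0355) and Cd209a (7.54 to 11.7 CPM in CLP, 0.0451). Neither had counts in ILCP. Marco, Clec9a and Cd209d were at 0 in every library. The part of these markers in the lower H2-DM and H2-Ob values was not tested.

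The chains that present peptide behaved differently. H2-Aa (ENSMUSG00000036594, chromosome 17, 34282744 to 34287827), the alpha chain of I-A, had 25.8 and 31.9 CPM in ILC1/3P, 25.2, 3.87 and 146 CPM in ILCP, and 1.02, 2.76 and 9.34 CPM in CLP. ILC1/3P lay above CLP in every library, whereas ILCP spread over a 37.7-fold range that reached into CLP. The log2 fold change was 2.72 ± 1.15 in ILC1/3P against CLP (edgeR adjusted p = 0.11) and 3.74 ± 1.12 in ILCP against CLP (edgeR adjusted p = 0.0746). Neither passed the test. H2-Aa was called higher in ILCP without ILCP replicate 2 (adjusted p = 0.0223) and by DESeq2 (0.00271). In ILC1/3P it was called by DESeq2 (0.0397) and when replicate 3 of CLP and ILCP was left out (0.047).

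H2-Ab1 (ENSMUSG00000073421, chromosome 17, 34263209 to 34269418), the beta chain of I-A, had 16.8 and 37.8 CPM in ILC1/3P, 56.3, 15.5 and 115 CPM in ILCP, and 18.5, 17.1 and 60.5 CPM in CLP. The 3 populations overlapped. The log2 fold change was -0.23 in ILC1/3P against CLP (edgeR adjusted p = 0.864) and 0.96 ± 0.69 in ILCP against CLP (edgeR adjusted p = 0.535). The sign in ILC1/3P turned to 0.61 without CLP replicate 3 and to 0.24 without ILC1/3P replicate 1.

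H2-Eb1 (ENSMUSG00000060586, chromosome 17, 34305877 to 34316199) encodes the beta chain of I-E, whose alpha chain gene is defective in B6 mice and stands in the table as the pseudogene H2-Ea-ps, with counts in 1 ILCP library only (0.553 CPM). H2-Eb1 had 3.13 and 6.62 CPM in ILC1/3P, 13.8, 1.80 and 31.7 CPM in ILCP, and 0.227, 1.84 and 18.5 CPM in CLP. The range within CLP was 81.7-fold, and the populations overlapped. The log2 fold change was -0.50 in ILC1/3P against CLP (edgeR adjusted p = 0.846) and 1.20 ± 1.29 in ILCP against CLP (edgeR adjusted p = 0.73). Without CLP replicate 3 the value in ILC1/3P was 2.26.

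Cd74 (ENSMUSG00000024610, chromosome 18, 60803848 to 60812646), which encodes the invariant chain, had 45.2 and 75.6 CPM in ILC1/3P, 46.4, 38.6 and 260.4 CPM in ILCP, and 23.4, 36.1 and 64.8 CPM in CLP. All 3 populations overlapped. The log2 fold change was 0.55 ± 0.73 in ILC1/3P against CLP (edgeR adjusted p = 0.636), 1.48 ± 0.67 in ILCP against CLP (edgeR adjusted p = 0.242) and -0.93 in ILC1/3P against ILCP (edgeR adjusted p = 0.444). The last of these turned to 0.51 without ILCP replicate 3. By FPKM, Cd74 was the most abundant of the 10 genes in both ILC1/3P libraries (17.0 and 25.3) and in ILCP replicate 3 (144), while H2-DMa was the most abundant in ILCP replicate 1 (28.9) and in every CLP library (149, 175 and 181), and H2-Oa in ILCP replicate 2 (30.9).

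Between ILC1/3P and ILCP, none of the presenting chains was called, with log2 fold changes of -1.02 for H2-Aa (edgeR adjusted p = 0.604), -1.19 for H2-Ab1 (0.346) and -1.70 for H2-Eb1 (0.498). For H2-Aa the sign rested on ILCP replicate 3, without which the value was 0.99.

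**Figure D3:**
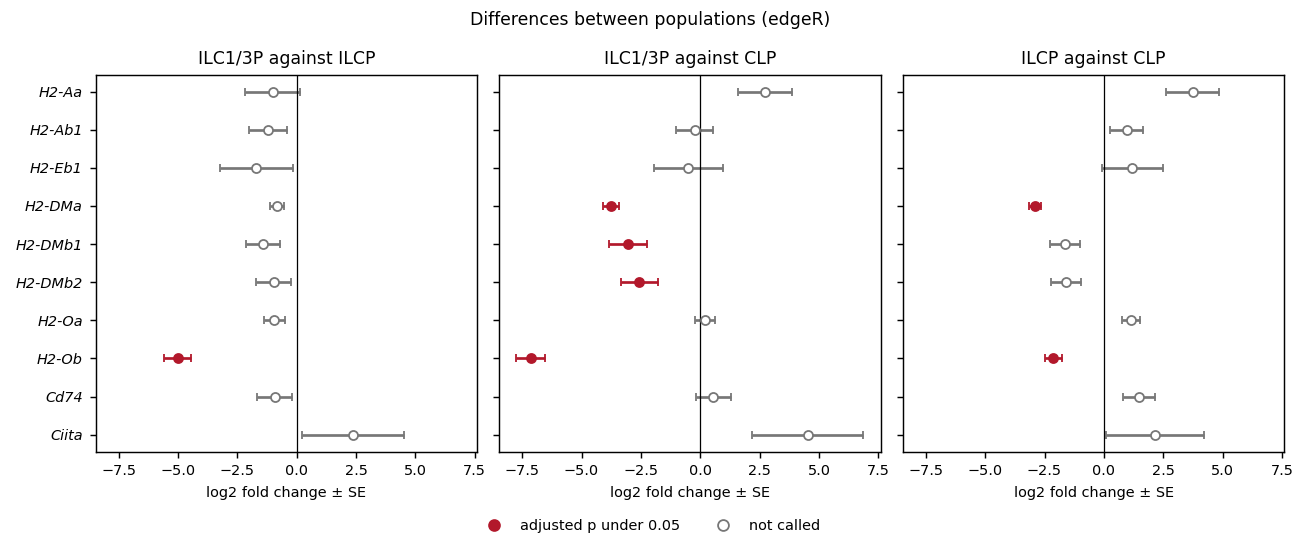
Log2 fold change with its standard error (horizontal axis) of the 10 genes in ILC1/3P against ILCP, ILC1/3P against CLP and ILCP against CLP, from edgeR's fit to all 8 libraries; filled red marks have an adjusted p under 0.05. The filled marks are H2-DMa, H2-DMb1, H2-DMb2 and H2-Ob, all to the left of 0, and the fold of Ciita is poorly determined because it had few counts.

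Ciita (ENSMUSG00000022504, chromosome 16, 10488178 to 10527564) was close to the floor in most libraries. It had 67 and 5 counts in ILC1/3P (11.0 and 1.18 CPM), 0, 3 and 22 counts in ILCP (0, 0.415 and 3.10 CPM), and 0, 0 and 5 counts in CLP (0, 0 and 0.741 CPM). CLP replicates 1 and 2, without Ciita counts, had 2355 and 1920 counts of H2-DMa and 1052 and 880 of H2-Ob. The part of Ciita in these values was not tested. ILC1/3P lay above CLP in both libraries, with a 9.33-fold range between them. The difference did not pass the test in ILC1/3P against CLP (edgeR adjusted p = 0.186), in ILCP against CLP (0.682) or in ILC1/3P against ILCP (0.505), and a fold against so few counts depends on the settings of the fit. The library with the most Ciita, ILC1/3P replicate 1, was not the library with the most H2-Aa, H2-Ab1, H2-Eb1 or Cd74, which was ILCP replicate 3 in each case. Within ILCP and within CLP, however, replicate 3 had the most Ciita and also the most of these 4 genes. Over the 8 libraries r of Ciita with them was 0.154 to 0.649, and 0.316 to 0.59 with the population means removed. The antisense gene Dexi shares 329 exonic bases with Ciita; it had 0.493 and 2.84 CPM in ILC1/3P, 10.5 to 24.2 CPM in ILCP and 1.48 to 7.60 CPM in CLP, and its reads cannot be told from those of Ciita there.

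The partner chains of I-A did not keep a fixed ratio. H2-Ab1 over H2-Aa in FPKM was 0.707 and 1.29 in ILC1/3P, 2.43, 4.35 and 0.859 in ILCP, and 19.7, 6.75 and 7.05 in CLP. The beta chain transcript was in excess in every CLP library, and the groups did not overlap between either innate progenitor and CLP. The difference in mean log2 ratio was -3.36 in ILC1/3P against CLP (exact permutation p = 0.2, the smallest possible) and -2.23 in ILCP against CLP (exact permutation p = 0.1, the smallest possible).

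Summed over H2-Aa, H2-Ab1 and H2-Eb1, the presenting chains had 14.9 and 22.9 FPKM in ILC1/3P, 52.8, 10.1 and 147 FPKM in ILCP, and 10.4, 10.8 and 48.9 FPKM in CLP. The 5 genes of H2-DM and H2-O together had 21.8 and 22.1 FPKM in ILC1/3P, 72.0, 59.6 and 83.1 FPKM in ILCP, and 234, 243 and 262 FPKM in CLP. In TMM-scaled CPM the same sum was 64.8 and 72.3 in ILC1/3P, 147, 144 and 186 in ILCP, and 489, 587 and 593 in CLP. The sum of the editing chains thus ordered the 8 libraries by population, with CLP highest, and that of the presenting chains did not. H2-DMa made up most of the editing sum in CLP (149, 175 and 181 FPKM). Not every editing gene had this order: H2-Oa was highest in ILCP, and H2-DMb2 overlapped between ILC1/3P and ILCP. In ILCP replicate 3, Ciita was 7.47 times the next highest ILCP library (22 counts against 3), H2-Aa 5.8, Cd74 5.62, H2-Eb1 2.3 and H2-Ab1 2.04 times, while H2-DMb1 was 1.39, H2-DMb2 1.31, H2-Oa 1.17, H2-Ob 1.07 and H2-DMa 0.771 times the highest of the other ILCP libraries. In CLP, replicate 3 was the highest of the 3 libraries for every member except H2-Ob, for which it was the lowest.

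**Figure D4:**
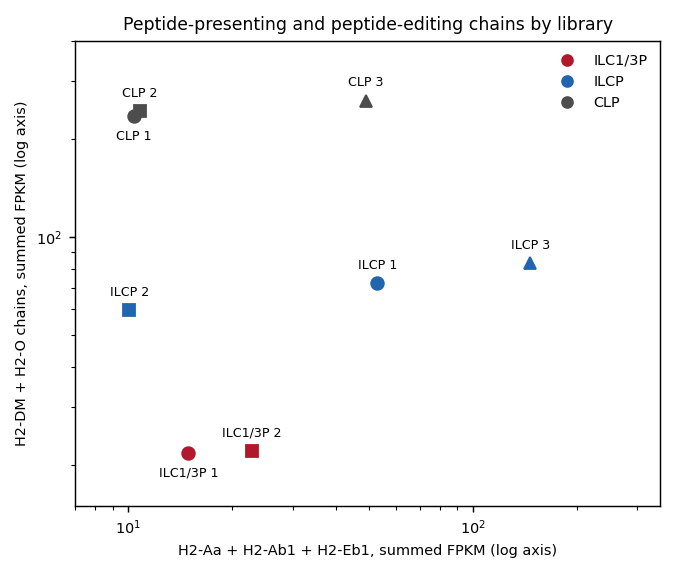
Each mark is a library, placed by the summed FPKM of the presenting chains H2-Aa, H2-Ab1 and H2-Eb1 (horizontal log axis) and of the 5 H2-DM and H2-O genes (vertical log axis), coloured by population. Populations form 3 separate levels on the vertical axis (about 22 in ILC1/3P, 59.6 to 83.1 in ILCP and 234 to 262 in CLP) but overlap on the horizontal axis.

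The correlations of log2 CPM over the 8 libraries, given as a description of points that share their libraries and depth, differed between the whole set of libraries and the libraries of a population. Among H2-Aa, H2-Ab1, H2-Eb1 and Cd74 Pearson's r was 0.739 to 0.897 for the 6 pairs, and 0.785 to 0.922 once each population's mean had been removed. Among H2-DMa, H2-DMb1, H2-DMb2 and H2-Ob r was 0.711 to 0.917, but -0.655 to 0.542 with the population means removed. Between the presenting set with Cd74 and H2-DMa or H2-Ob r was -0.637 to 0.0776, and -0.0493 to 0.624 with the population means removed. H2-DMb1 had r of -0.466 to 0.207 with the presenting set and Cd74 over all libraries, but 0.671 to 0.905 with the population means removed (0.905 with H2-Ab1). For H2-DMb2 the values were -0.326 to 0.15 over all libraries and 0.324 to 0.578 with the means removed. Within populations r of H2-DMb1 was lower with H2-DMa (0.0257), H2-DMb2 (0.189) and H2-Ob (0.201). With H2-Oa, the remaining editing gene, it was 0.775, inside the range with the presenting set and Cd74.

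Markers of antigen-presenting cells were also summed in the libraries with the most class II. The sum of 7 conventional dendritic cell markers was 27.3 CPM in ILCP replicate 3, against 28.2 and 28.5 CPM in the other ILCP libraries, and 18.4 CPM in CLP replicate 3, against 17.0 and 19.5 CPM in the other CLP libraries. Of that list Itgax, Cd209a, Clec9a and Clec10a were at 0 in all ILCP libraries. Xcr1 had 12.2 to 14.2 CPM, Batf3 8.01 to 13.1 CPM and Zbtb46 0 to 6.63 CPM there. The B-lineage sum was 191 CPM in ILCP replicate 3 against 155 and 175 CPM, and 3047 CPM in CLP replicate 3 against 2545 and 3321 CPM. The macrophage and monocyte sum was 29.6 CPM in ILCP replicate 3 against 31.3 and 11.7 CPM, with Adgre1 at 1.13 CPM there and at 0 in the other libraries of the series. The plasmacytoid sum was 209 CPM in ILCP replicate 3 against 123 and 154 CPM, with 166 CPM of it from Ccr9 and Siglech at 0.

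**Figure D5:**
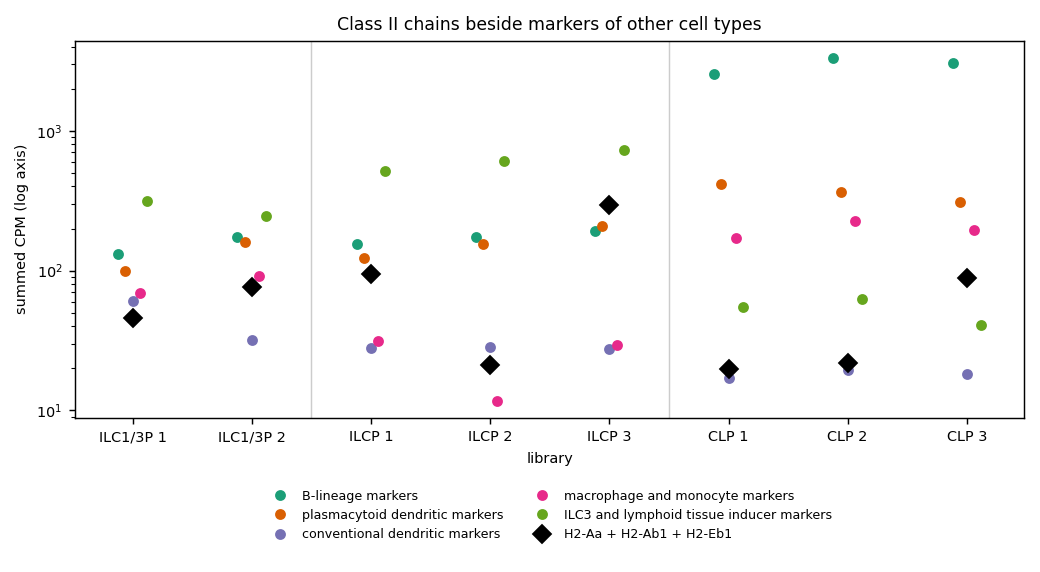
Summed CPM (log axis) of 5 marker lists and of H2-Aa, H2-Ab1 and H2-Eb1 (black diamonds) in each library, grouped as ILC1/3P, ILCP and CLP. The diamonds are highest in ILCP replicate 3 (293 CPM) and ILCP replicate 1 (95.3 CPM) and lowest in CLP replicate 1 (19.7 CPM), while B-lineage, plasmacytoid and macrophage sums are highest in CLP.

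The genes most like each member over the 8 libraries, by Pearson's r of log2 CPM, were named for the 8 members with at least 20 CPM in some population. They were Srgap3 (0.942), Tagln2 (0.933) and Rnf125 (0.915) for H2-Aa, and Naprt (0.921), H2-Eb1 (0.897) and Arnt (0.892) for H2-Ab1. For Cd74 they were Cxx1b (0.916), Cd44 (0.882) and H2-Aa (0.872). For H2-DMa they were Tifa (0.994), Rgs10 (0.989) and Alox5ap (0.989), for H2-DMb1 Marcksl1 (0.981), Ddx39b (0.972) and Blk (0.972), and for H2-DMb2 Lpgat1 (0.989), Cxxc5 (0.976) and Gps1 (0.975). H2-Ob was most like Slamf6 (0.995), Ddah2 (0.991) and Herpud1 (0.989), and H2-Oa most like Mmadhc (0.977), Enpp5 (0.97) and Tgfbr3 (0.95). The editing genes had higher r with their nearest 3 than H2-Aa and H2-Ab1, the only presenting genes at that level. Population means were not removed here, so the differences between populations given above enter these values. H2-Ab1 and Cd74 each had another member among their nearest 3.

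Transcripts of the factors that bind class II promoters were followed as well. Of 7 such genes (Rfx5, Rfxap, Rfxank, Nfya, Nfyb, Nfyc and Creb1), 0 were called in either direction in ILC1/3P against CLP and in ILCP against CLP, with list medians of 0.33 and 0.10 on the log2 scale. Nfya was the only gene called, higher in ILC1/3P than in ILCP (4.59 ± 1.39, edgeR adjusted p = 0.0438). It had 2.63 and 31.9 CPM in ILC1/3P, 0.427, 1.11 and 0.563 CPM in ILCP, and 1.81, 9.93 and 1.04 CPM in CLP, so that value rests on ILC1/3P replicate 2, and the call was lost under 7 of 12 alternatives. Over all tested genes, 11.8% were called higher and 11.7% lower in ILC1/3P against CLP. The shares were 3.91% and 2.87% in ILCP against CLP, and 8.06% and 8.25% in ILC1/3P against ILCP. With 7 genes, the counts of this list cannot be told apart from those shares, which also stand beside the lists that follow.

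Regulators of the Ciita promoters included genes with large differences. Of 8 genes, 1 rose and 3 fell in ILC1/3P against CLP (list median -1.88), 0 rose and 3 fell in ILCP against CLP (-0.87), and 2 rose and 0 fell in ILC1/3P against ILCP (1.1). Spi1, which encodes PU.1, had 13.0 and 6.38 CPM in ILC1/3P, 8.96, 10.2 and 0.282 CPM in ILCP, and 227, 254 and 189.6 CPM in CLP (edgeR adjusted p = 0.00408 for ILC1/3P and 0.0018 for ILCP, each against CLP). Irf8, a partner of PU.1 in myeloid and B cells, had 16 and 27.4 CPM in ILC1/3P, 2.28, 0.276 and 0.141 CPM in ILCP, and 295, 98.1 and 143 CPM in CLP. It was called in all 3 comparisons, lower in ILC1/3P than in CLP (-3.05 ± 0.74, edgeR adjusted p = 0.0116), lower in ILCP than in CLP (-7.62 ± 0.82, 0.000131) and higher in ILC1/3P than in ILCP (4.57 ± 0.79, 0.00302). Irf4 had 0 and 1.42 CPM in ILC1/3P, no counts in ILCP and 16.4 to 22.4 CPM in CLP, which is at least 132.9-fold lower in ILCP against a floor of 3 counts over the group (edgeR adjusted p = 0.00744). Its call in ILC1/3P against CLP (edgeR adjusted p = 0.0468) was lost under 7 of 12 alternatives, with adjusted p up to 0.132. In the same comparison the Spi1 call was lost under 2 of 12 alternatives, among them leaving out ILC1/3P replicate 2. The Irf8 call was lost there without CLP replicate 1 (adjusted p = 0.0628) or ILC1/3P replicate 1. In ILCP against CLP the calls of Irf4 (adjusted p up to 0.11) and Spi1 (up to 0.052) were each lost under 1 of 13 alternatives. Irf1, a mediator of the interferon gamma response at the Ciita promoter, had 108 and 110.1 CPM in ILC1/3P, 14.5 to 42 CPM in ILCP and 27.0 to 60.5 CPM in CLP. It was called higher in ILC1/3P against CLP (edgeR adjusted p = 0.0433) and against ILCP (0.0197), and these calls were lost under 7 and 5 of 12 alternatives.

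Of 8 genes of interferon gamma signalling, the pathway that induces Ciita outside dedicated antigen-presenting cells, 5 rose and 1 fell in ILC1/3P against CLP, 3 rose and 0 fell in ILCP against CLP, and 2 rose and 1 fell in ILC1/3P against ILCP. Ifng, the cytokine itself, had 952 and 1623 CPM in ILC1/3P, 12.2, 26.0 and 27.3 CPM in ILCP, and no counts in CLP, at least 153.3-fold higher in ILCP than in CLP. Ifngr2, a chain of its receptor, ran the other way, with 5.76 and 1.42 CPM in ILC1/3P, 50.9, 38.3 and 59.1 CPM in ILCP, and 135, 120.5 and 126 CPM in CLP. It fell by 5.09 ± 0.56 on the log2 scale in ILC1/3P against CLP (edgeR adjusted p = 1e-04) and fell by 3.73 ± 0.53 in ILC1/3P against ILCP (0.00118). The kinase gene Jak2 was higher than in CLP in ILC1/3P (2.52 ± 0.35, edgeR adjusted p = 0.000407) and in ILCP (1.84 ± 0.33, 0.00453). The Jak2 call in ILCP was lost under 1 of 13 alternatives (adjusted p = 0.102). Socs1, a feedback inhibitor of the pathway, was higher than in CLP in ILC1/3P (2.03 ± 0.49, edgeR adjusted p = 0.0105) and in ILCP (2.18 ± 0.46, 0.0123). The Socs1 call in ILC1/3P was lost under 2 of 12 alternatives, among them leaving out ILC1/3P replicate 2. In ILCP it was lost under 4 of 13, with adjusted p up to 0.0821. Among these were leaving out CLP replicate 1 (0.0561), CLP replicate 2 (0.0599) or ILCP replicate 3 (0.0624). The other genes called in ILC1/3P against CLP were Irf1 and Ifngr1, the second named after its values were seen, and Irf1 was also called against ILCP. The Ifngr1 call (0.77 ± 0.25, edgeR adjusted p = 0.046) was lost under 8 of 12 alternatives, with adjusted p up to 0.792.

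Among 9 measured genes of endosomal processing and class II turnover, 1 rose and 3 fell in ILC1/3P against CLP, 1 rose and 2 fell in ILCP against CLP, and 2 rose and 2 fell in ILC1/3P against ILCP. Lgmn, the asparaginyl endopeptidase of endosomes, had 8.55 and 8.04 CPM in ILC1/3P, 44.7, 41.6 and 85.5 CPM in ILCP, and 187, 252 and 152 CPM in CLP, and it was called lower in all 3 comparisons (edgeR adjusted p = 5.87e-05 for ILC1/3P and 0.00681 for ILCP against CLP, 0.00173 for ILC1/3P against ILCP). Its order across populations was the same as that of H2-DMa and H2-Ob. Ifi30, a thiol reductase that opens disulfide bonds of antigens, ran in the opposite order, with 100.3 and 164 CPM in ILC1/3P, 25.2, 40.8 and 26.0 CPM in ILCP, and 3.29, 2.02 and 8.60 CPM in CLP, and it was called higher in all 3 (edgeR adjusted p = 0.000168, 0.00735 and 0.0186 in the same order). Ctss, the protease of the late steps of invariant chain cleavage, had 136 and 209.9 CPM in ILC1/3P, 50.5, 67.7 and 88.3 CPM in ILCP, and 237, 355 and 288 CPM in CLP, and was called lower in ILCP than in CLP (-2.09 ± 0.29, edgeR adjusted p = 0.000906) and higher in ILC1/3P than in ILCP (1.33 ± 0.31, 0.0137). Ctsb, another endosomal cysteine protease, was lower in ILC1/3P than in CLP (-2.44 ± 0.33, edgeR adjusted p = 0.000339) and than in ILCP (-2.20 ± 0.33, 0.00154). The remaining call was Ctsh, lower in ILC1/3P than in CLP (edgeR adjusted p = 0.0132, 0.0658 without ILC1/3P replicate 1) and named after its values were seen. In ILC1/3P against ILCP the Ifi30 call was lost under 4 of 12 alternatives (adjusted p up to 0.135), among them leaving out ILCP replicate 1, ILCP replicate 3 or ILC1/3P replicate 2. The Ctss call there was lost under 3 of 12 (up to 0.113), among them leaving out ILCP replicate 1 or ILC1/3P replicate 2.

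A list of 7 neighbours in the class II region was followed too. Of the 5 that were tested (Tap1, Tap2, Psmb8, Psmb9 and Brd2), 0 were called lower in any comparison, and 2 rose in ILC1/3P against CLP, 1 in ILCP against CLP and 2 in ILC1/3P against ILCP. Psmb9, an immunoproteasome subunit, had 239 and 435 CPM in ILC1/3P, 74.8, 45.7 and 66.3 CPM in ILCP, and 64.6, 67.5 and 76.3 CPM in CLP, and was called higher in ILC1/3P against CLP (2.28 ± 0.32, edgeR adjusted p = 0.000397) and against ILCP (2.44 ± 0.32, 0.000834). Psmb8, of the same complex, was higher in ILC1/3P than in CLP (1.75 ± 0.23, edgeR adjusted p = 0.000277), and its smaller differences of 0.95 in ILCP against CLP and 0.81 in ILC1/3P against ILCP lost their calls under 6 of 13 and 7 of 12 alternatives. Psmb8 and Psmb9 lie between H2-DMb1 and H2-Ob on chromosome 17, whose values in ILC1/3P were lower than in CLP. Of the costimulatory ligand genes, 3 of 6 were tested, and Cd86 was called in ILCP against CLP (0, 7.46 and 0 CPM in ILCP, and 107, 127 and 88.1 CPM in CLP, edgeR adjusted p = 0.0415), a call lost under 10 of 13 alternatives. The other class II loci in the table (H2-Eb2, H2-Pa, H2-Pb and H2-Ea-ps) had at most 5.12 CPM, and H2-Eb2, the only gene of them tested, was not called.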

How the data were processed

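Counts per gene and FPKM for 8 libraries were deposited by the authors in a single table, with identifiers, symbols and mm10 coordinates. Per the labels' protocols, cDNA was made in the lysate of sorted cells with a SMARTer Ultra Low kit, amplified by PCR and sequenced on a NovaSeq6000; the build is given in the submitters' processing notes. FPKM values were computed by the authors. Which aligner, counter, annotation release and strand setting they used is not given in the sources used here. The protocols name no molecular identifiers, and floors therefore cover counting error only. There were 0 unmapped value columns.

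Tests on the deposited counts used edgeR 4.0.16 (R 4.3.3): filterByExpr left 13436 genes, libraries were TMM-scaled, and a robust quasi-likelihood model with 1 mean per group was fitted to all 8 libraries. P-values are two-sided and Benjamini-Hochberg adjusted over all tested genes, called under 0.05. Standard errors are the absolute log2 fold change over the root of F. The fit had 5 residual degrees of freedom and a biological coefficient of variation of 0.679. FPKM served for levels between genes; it is not TMM-scaled, and ILC1/3P libraries had TMM factors of 0.671 and 0.753 against 1.05 to 1.23 elsewhere. Scaling by total counts alone moved the median log2 fold change of all genes in ILC1/3P against CLP to -0.93 and against ILCP to -0.86; the calls there were 946 higher and 2807 lower against CLP (1592 and 1571 with TMM) and 474 higher and 2141 lower against ILCP (1083 and 1109).

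Members and gene lists were chosen with earlier results of these data known. All 10 members are named whatever their values, with up to 4 genes of each other list by smallest p and the 3 genes most correlated with each member (log2 CPM, prior count 2). Ratios were compared with exact permutation tests (SciPy 1.17.1). Replicate numbers were not used to pair libraries in the main fit. Same-numbered libraries' deviations from their group means correlated at -0.0332 to 0.0867, and those of differently numbered libraries at -0.093 to 0.0332. With so few libraries per group these deviations constrain each other, so the check cannot exclude pairing. Transcripts of H2-DMb1 and H2-DMb2 were aligned with Biopython 1.88, and overlaps came from GENCODE M21. The programs were tested on simulated counts. Alternatives were RLE size factors, scaling by total counts, no filter, DESeq2 1.42.0, only the groups compared, a replicate block and leaving out libraries. March1 and related names, H2-Ea and other symbols that did not match the table were not analysed here.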

Additional observations from a re-analysis of the deposited data

How the results depend on the processing

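Of 363 alternatives for the 30 fold changes of members, 328 kept their direction and side of the threshold, 10 lost a call, 9 gained 1 and 16 turned sign, none of these 16 being a called value. H2-DMa was called against CLP under every alternative in both innate progenitors, and H2-Ob in ILC1/3P under every alternative against CLP and against ILCP. Sign changes in ILC1/3P against CLP were 0.66 under the replicate block, 0.61 without CLP replicate 3, 0.24 without ILC1/3P replicate 1 and 0.62 without replicate 3 of CLP and ILCP for H2-Ab1 (-0.93 to 0.61 leaving out each library); 1.81, 2.26 and 2.25 (block, without CLP replicate 3, without both) for H2-Eb1 (-1.12 to 2.26); -0.49 with total counts and -0.29 without ILC1/3P replicate 2 for H2-Oa (-0.29 to 0.58); and -0.12 with total counts for Cd74. In ILC1/3P against ILCP they were 0.89, 0.99 and 0.99 for H2-Aa (block, without ILCP replicate 3, without both; -1.51 to 0.99) and 0.18, 0.51 and 0.51 for Cd74 (-1.34 to 0.51).

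Genes called in ILCP against CLP numbered 912, 1739 with DESeq2, 362 without replicate 3 of both and 587 to 709 leaving out each library (587, 594 and 597 without CLP replicate 2, CLP replicate 3 and ILCP replicate 3); members called numbered 2, 5 with DESeq2 (H2-Aa, H2-DMb1 and H2-Oa added), 1 without both and 2 to 3 leaving out each library. In ILC1/3P against CLP 3163 genes were called, 2108 without both and 2285 to 2969 leaving out each library, with 4 members and 2 to 3 leaving out each library (2 without CLP replicate 3). Without an ILC1/3P library the other is assumed to vary like the other groups. In ILC1/3P against ILCP 2192 were called, 895 without both and 1333 to 2161 leaving out each library (1333, 1414 and 1419 without ILC1/3P replicate 2, ILCP replicate 3 and ILCP replicate 1), with 1 member and 3 with total counts (H2-DMa, H2-Oa and H2-Ob). The replicate block, which groups libraries by number, gave 741, 2624 and 1753 genes and 2, 4 and 1 members. In ILC1/3P against CLP it called H2-Aa (adjusted p = 0.00901) and not H2-DMb1 (0.054). Beyond what each alternative leaves out, the cause of these changes was not tested. Counts of 0 to 22 limit what can be said of Ciita in ILCP and CLP.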

Other observations

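In ILCP the libraries with more H2-Aa were also those with more Cxcr5, a chemokine receptor of lymphoid tissue inducer cells, a gene singled out after its values were seen. Cxcr5 had 2.63 and 3.31 CPM in ILC1/3P, 23.5, 0.415 and 53.1 CPM in ILCP, and 0, 3.50 and 1.63 CPM in CLP, beside 25.2, 3.87 and 146 CPM of H2-Aa in the same ILCP libraries. Ccr6, another marker of those cells, was not ordered in this way: it had no counts in ILC1/3P, 6.97, 10.4 and 6.19 CPM in ILCP, and no counts in CLP. With 3 ILCP libraries no relation can be tested.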
